A study of Rattus norvegicus with 12 samples.

Results

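The 9 genes described here, Adora2a, Gpr6, Gnal, Rgs9, Tac1, Rxrg, Foxp1, Foxp2 and Meis2, mark neurons of the striatum and of the central amygdala, the nuclei that border the basolateral amygdala (BLA). They were chosen by name, with earlier results of these data known. Every probe set that the platform annotation assigns to exactly 1 of these symbols was kept, which gave 17 probe sets for all 9 genes, of 31042 probe sets tested and 14217 genes named in the whole table. The tissue was the BLA of male Long-Evans rats aged 2 to 3 months, singly housed with free chow and water. Rats of the sucrose group had an additional bottle with up to 4 mL of 30% sucrose 2 times a day for 14 days, and control rats had water on the same schedule. Tissue was collected early on day 15, and left and right BLA of 2 rats from the same group made up the pool for each array, so that 24 rats gave 6 sucrose and 6 control pools. A pool blends the dissections of its 2 rats, and their shares in it cannot be read from an array.

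Striatal projection neurons are inhibitory neurons that arise from the ganglionic eminences of the embryonic forebrain, as do the neurons of the central amygdala and the intercalated cell masses. The principal neurons of the BLA arise from the pallium, the source of the cortex, and use glutamate. In striatal projection neurons adenosine A2a and dopamine D1 receptors act on cAMP through a G protein that differs from the more common stimulatory one. These cells hold it in place of that one, and the genes of this pathway serve as markers of the cell type. The striatum lies close to the amygdala, and the central nucleus and intercalated cells touch the BLA itself. A BLA dissection may therefore hold some of these neurons. How much of them each pool held was not measured, and its part in the values below was not tested.

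The values are ratios to the mean of the 6 control arrays, taken to log2 here, so that 0 is about the control mean and -1 would be a halving. Such ratios keep no level, so the presence of BLA markers as such could not be checked and genes cannot be compared by abundance. In bulk tissue, fewer cells of a type and less RNA per cell cannot be told apart. Differences are sucrose minus control on the log2 scale with the standard error (SE) given by limma (6 pools in each group).

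Promoters of 2 members are shown because the G protein pathway of these cells acts on cAMP and these 2 hold the core of the cAMP response element. They are RefSeq sequences of build GRCr8, each with 250 bases before and 50 after the gene's start, 5′ to 3′ along the gene, with the core of the cAMP response element, TGACG on either strand, in capitals.
Gpr6, chr20:46075202-46075501, minus strand: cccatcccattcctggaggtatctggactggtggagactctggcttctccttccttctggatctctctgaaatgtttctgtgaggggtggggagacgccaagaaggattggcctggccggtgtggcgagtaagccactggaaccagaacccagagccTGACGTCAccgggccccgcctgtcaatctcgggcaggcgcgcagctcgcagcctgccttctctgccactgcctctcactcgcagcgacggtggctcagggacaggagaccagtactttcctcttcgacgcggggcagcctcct
Tac1, chr4:36645333-36645632, plus strand: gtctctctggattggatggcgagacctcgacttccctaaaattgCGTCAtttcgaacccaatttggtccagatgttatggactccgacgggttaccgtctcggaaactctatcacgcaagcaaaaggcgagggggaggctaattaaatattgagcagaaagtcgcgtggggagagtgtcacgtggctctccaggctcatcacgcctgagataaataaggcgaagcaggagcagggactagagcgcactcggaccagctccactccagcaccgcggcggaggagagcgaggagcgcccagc
Of the 6 members matched in the promoter table (Rgs9, Tac1, Gnal, Gpr6, Rxrg and Foxp1), these 2 held TGACG, against 21.2% of all 33465 promoters of this length. The Gpr6 match is the full palindrome TGACGTCA, in which 2 cores overlap, and 1.83% of all promoters held it. Letters of motifs bound by the families of member factors were searched on both strands as well. The forkhead letters TGTTTAC were in 1 of the 6, Foxp1 (3.78% of all promoters), the MEIS letters TGACAG in 2, Gpr6 and Rxrg (19.0%), and the nuclear receptor letters AGGTCA in 0 (16.2%). A match describes the sequence and is not a site shown to be bound.

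No difference between sucrose and control arrays passed the test in any of the 17 probe sets. In the limma fit 0 passed an adjusted p of 0.05 (0.0% of all tested probe sets did), and 0 had an unadjusted p under 0.05, where 7.57% of all did (4.5% higher and 3.07% lower in sucrose arrays). The lowest adjusted p was 0.734. By sign alone, 12 of 17 were lower in sucrose arrays, with a median difference of -0.04, and 54.3% of all probe sets were lower, with a median of -0.01. Of the 17 probe sets 0 separated the groups (0.425% of all did), and 0 stand among the 145 probe sets of the authors' deposited table. The 95% intervals of the 17 differences lay within -0.31 and 0.20, that is within ratios of 0.809 and 1.15. Their SEs ran between 0.04 and 0.10, so the reach of the interval depends on the probe set: its lower end is -0.31 for Gpr6 and -0.16 for Foxp1 1394691_at. The fit assumes equal spread in both groups, and the spreads given below were not alike for most of these probe sets.

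**Figure D1:**
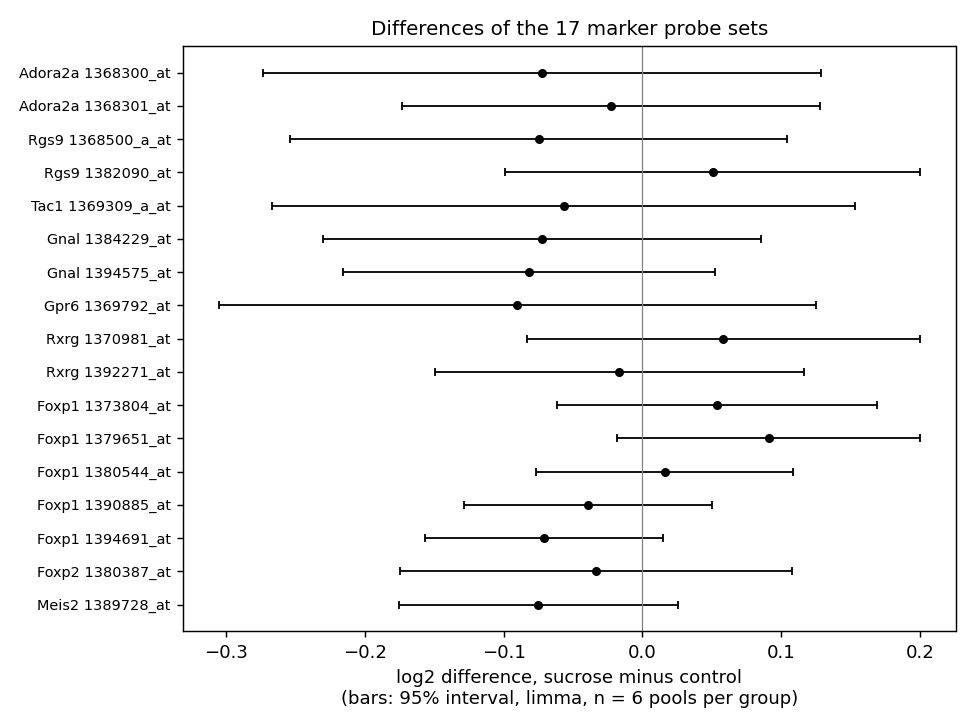
Log2 difference, sucrose minus control, of each of the 17 probe sets (points) with its 95% interval from limma (bars, n = 6 pools per group). Every interval crosses 0, and the points run between -0.09 for Gpr6 and 0.09 for Foxp1 probe set 1379651_at.

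The sucrose pools were the more spread ones for these genes. For 16 of 17 probe sets the standard deviation (SD) of the 6 sucrose arrays exceeded that of the 6 control arrays, as it did for 45.4% of all probe sets, and the median of the SD ratio was 1.78, against 0.943 over all probe sets, 1.23 for other striatal genes, 2.03 for myelin genes and 2.23 for choroid plexus and ependyma genes. The exception was Foxp1 probe set 1373804_at, with an SD of 0.07 in sucrose and 0.12 in control arrays. The count was 14 to 16 when any single array was left out and 15 without sucrose array 1. The median SD ratio was 0.936 for central and intercalated amygdala genes. In 9 of their 21 probe sets (42.9%) the sucrose SD was the larger. For thalamic and hypothalamic genes the ratio was 1.15, and for pallial, GABA neuron, astrocyte, microglia and endothelium genes it lay between 0.68 and 0.916. Members share cells and arrays and are not independent, and whether the spread differs between groups was not tested.

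**Figure D2:**
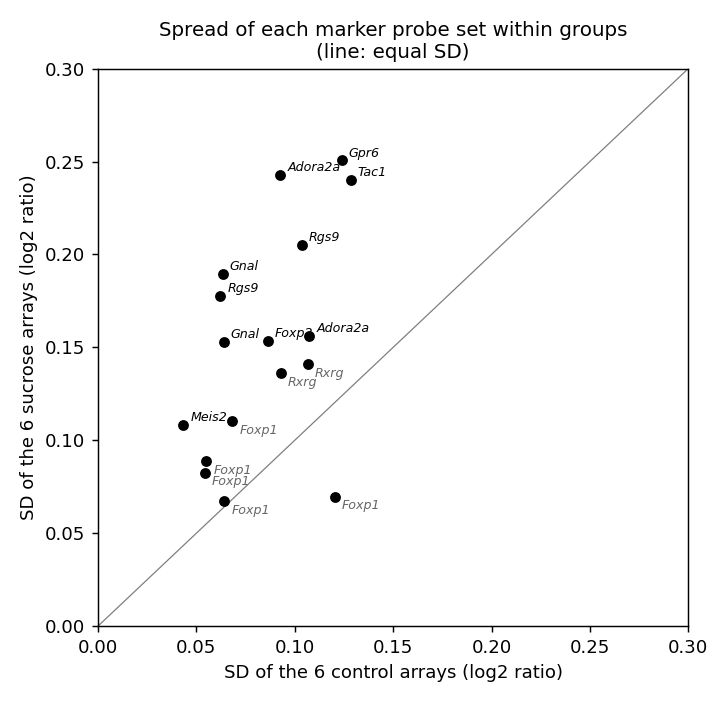
SD of the 6 sucrose arrays (vertical axis) against SD of the 6 control arrays (horizontal axis), both of log2 ratios, for each of the 17 probe sets, with the line of equal SD. Of the points 16 lie above the line and 1, a Foxp1 probe set, lies below it.

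The widest sucrose ranges among the members were those of Gpr6 and of 1 Adora2a probe set. Gpr6, a receptor of indirect-pathway striatal neurons that raises cAMP without a bound ligand, had a lowest value of -0.49, a median of -0.08 and a highest value of 0.23 in sucrose arrays, against -0.14, -0.02 and 0.15 in control arrays. The lowest sucrose value corresponds to a ratio of 0.713 and the highest to 1.17. Its difference was -0.09 ± 0.10 (SE), with an adjusted p of 0.880. It was -0.0115 without sucrose array 1, -0.1552 without sucrose array 5, -0.0598 without control array 2 and -0.1808 with the mean of myelin genes as a covariate. Sucrose arrays 1, 2 and 3 lay below every control array and array 5 lay above every one, so that the sucrose group reached past the controls on both sides.

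Adora2a encodes the adenosine A2a receptor, the defining receptor of indirect-pathway neurons and a target of caffeine. Its probe set 1368300_at ranged between -0.47 and 0.24 in sucrose arrays with a median of -0.07, and between -0.12 and 0.11 in control arrays with a median of -0.03. Probe set 1368301_at ranged between -0.25 and 0.15 in sucrose arrays, with a median of -0.03, against -0.12 and 0.19 in control arrays, with a median of -0.03. Both were lowest in sucrose array 1, and both sets of group ranges overlapped. The differences were -0.07 ± 0.09 and -0.02 ± 0.07 (adjusted p = 0.903 and 0.970 in limma), and without sucrose array 1 they were 0.0066 and 0.0215. The 2 probe sets followed each other closely, with r = 0.86 over the 12 arrays once each group's mean was subtracted.

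Gnal encodes the alpha subunit of Golf, the G protein that couples A2a and D1 dopamine receptors to adenylyl cyclase in striatal neurons. Its probe set 1384229_at ranged between -0.39 and 0.16 in sucrose arrays with a median of -0.07, against -0.08 and 0.06 in control arrays with a median of 0.03. Probe set 1394575_at ranged between -0.29 and 0.14 in sucrose arrays with a median of -0.09, against -0.09 and 0.08 in control arrays with a median of 0.00. In both, sucrose arrays 1, 2 and 3 lay below all 6 controls and array 4 above all of them. The differences were -0.07 ± 0.07 and -0.08 ± 0.06, with an adjusted p of 0.868 and 0.817 in limma, and r between the probe sets was 0.93. They were -0.0088 and -0.0394 without sucrose array 1, and -0.1198 and -0.1266 without sucrose array 4. Control arrays were tight for this gene, with an SD of 0.06 for each probe set, against 0.19 and 0.15 in sucrose arrays.

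Rgs9 encodes a protein that speeds the shut-off of G proteins and is abundant in striatal neurons. Probe set 1368500_a_at ranged between -0.37 and 0.18 in sucrose arrays with a median of -0.07, against -0.17 and 0.15 in control arrays with a median of 0.00. It was lowest in sucrose array 1 and highest in sucrose array 5, with a difference of -0.07 ± 0.08 (adjusted p = 0.882 in limma) that was -0.0159 without sucrose array 1, -0.1263 without sucrose array 5, -0.0449 without control array 3 and -0.1531 with the myelin covariate. The second probe set, 1382090_at, did not follow this order. It ranged between -0.15 in array 4 and 0.32 in array 5 of the sucrose group, with a median of 0.01, against -0.11 and 0.07 in control arrays, with a median of 0.01. Its difference was 0.05 ± 0.07 (adjusted p = 0.912), of the opposite sign, and r between the 2 probe sets was 0.57.

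Tac1 encodes the precursor of substance P and neurokinin A, neuropeptides of direct-pathway striatal neurons that are also made in the amygdala. It ranged between -0.34 and 0.20 in sucrose arrays with a median of -0.01, and between -0.24 and 0.12 in control arrays with a median of 0.03. Sucrose arrays 1 and 3 were lowest, both at -0.34, and control array 6 came next at -0.24, so the low end was not held by the sucrose group alone. The difference was -0.06 ± 0.10 (adjusted p = 0.933 in limma). It was -0.0016 without sucrose array 1, -0.0003 without sucrose array 3 and -0.1497 with the myelin covariate. Without sucrose array 4, 5 or 6 or control array 6 it lay between -0.1091 and -0.0871, and without control array 2 it was -0.031.

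**Figure D3:**
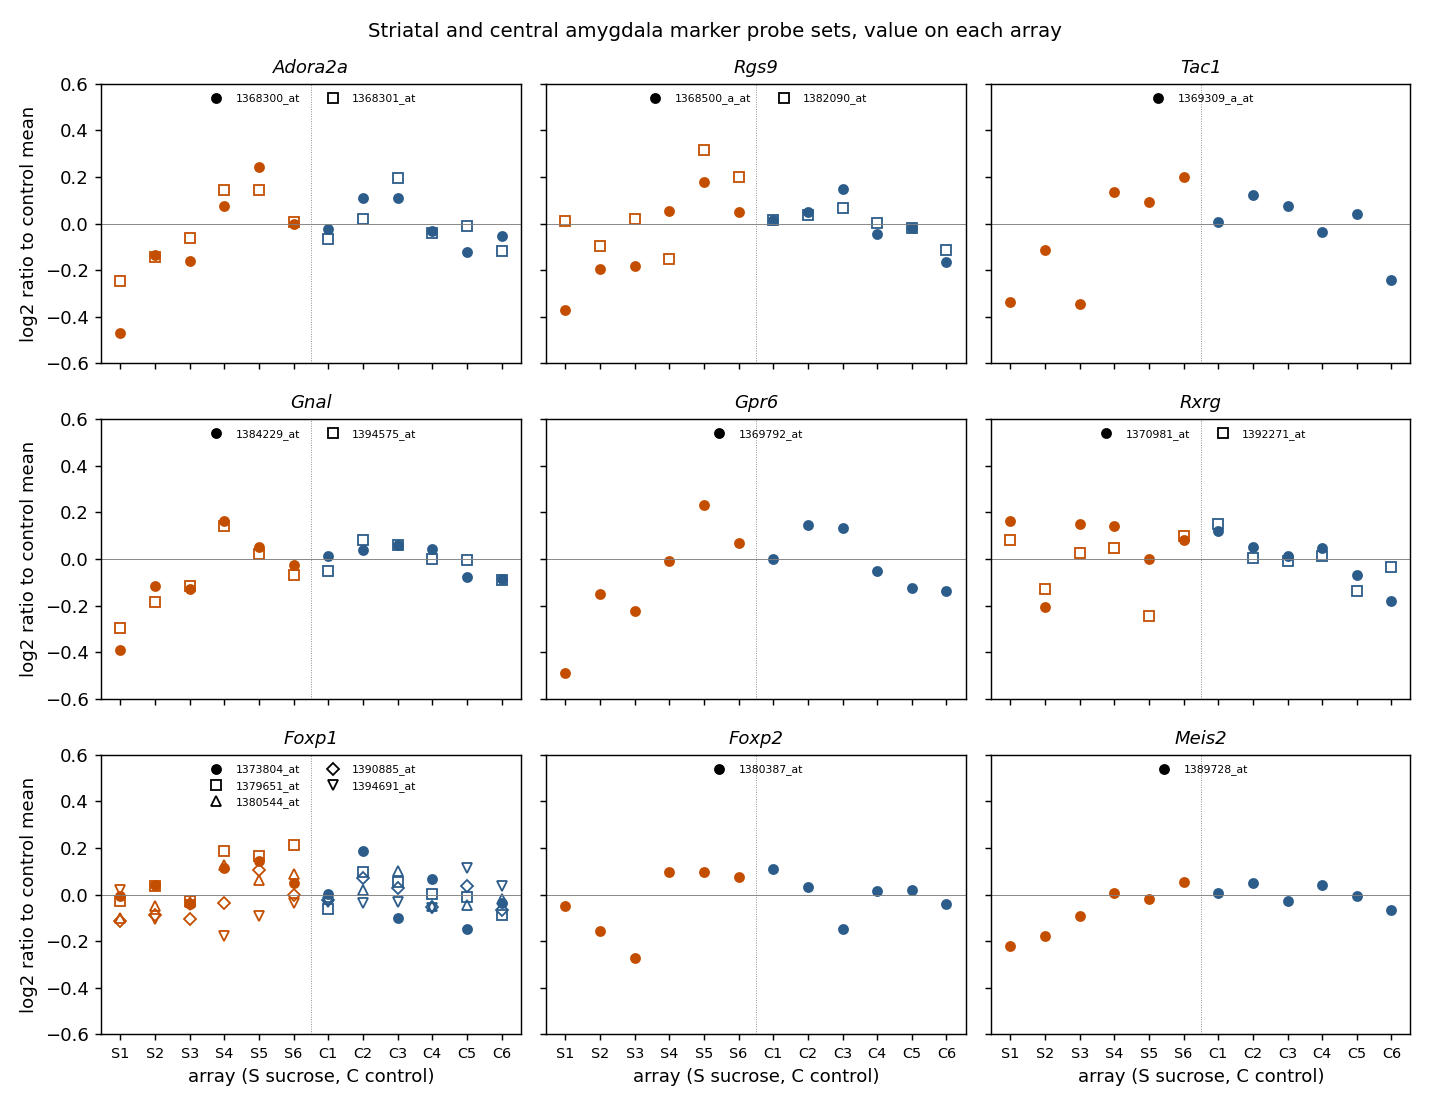
Log2 ratio to the control mean (vertical axis) of every probe set of the 9 genes on each of the 12 arrays (horizontal axis, S1 to S6 sucrose in orange, C1 to C6 control in blue), with 1 marker shape for each probe set of a gene. Adora2a, Gnal, Gpr6, Tac1 and Meis2 are low in S1, S2 and S3, while Rxrg and Foxp1 probe set 1394691_at are not low in S1.

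The transcription factors had narrower sucrose ranges than the genes above. Meis2, a homeodomain factor of neurons from the ganglionic eminences, ranged between -0.22 and 0.05 in sucrose arrays with a median of -0.06, against -0.07 and 0.05 in control arrays with a median of 0.00. Sucrose arrays 1, 2 and 3, at -0.22, -0.18 and -0.09, lay below all controls, and the difference was -0.08 ± 0.05 (adjusted p = 0.771 in limma), or -0.0459 without sucrose array 1. Foxp2, a forkhead repressor of striatal neurons and of intercalated amygdala cells, ranged between -0.27 and 0.10 in sucrose arrays with a median of 0.01, against -0.15 and 0.11 in control arrays with a median of 0.02. Its lowest value was in sucrose array 3 and not in array 1, which was at -0.05, and its difference was -0.03 ± 0.07 (adjusted p = 0.944).

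Foxp1, a related forkhead repressor found in striatal and in cortical projection neurons, had 5 probe sets that did not agree on a direction. Of these 3 were higher in sucrose arrays, led by 1379651_at (0.09 ± 0.05, adjusted p = 0.734 in limma), and 2 were lower, led by 1394691_at (-0.07 ± 0.04, adjusted p = 0.736). Probe set 1379651_at ranged between -0.03 and 0.21 in sucrose arrays with a median of 0.10, against -0.09 and 0.10 in control arrays with a median of 0.00. Sucrose arrays 4, 5 and 6 were above all controls there, and arrays 1, 2 and 3 were within the control range. Probe set 1394691_at ranged between -0.18 and 0.02 in sucrose arrays with a median of -0.07, against -0.06 and 0.11 in control arrays with a median of -0.03. It ran against the other 4 across arrays, with r between -0.63 and -0.14, while r among those 4 was between 0.28 and 0.82. The remaining 3 had differences of 0.05 (1373804_at), 0.02 (1380544_at) and -0.04 (1390885_at), with sucrose values between -0.11 and 0.14 and control values between -0.15 and 0.19.

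Rxrg encodes retinoid X receptor gamma, a partner of retinoic acid receptors that is enriched in striatum. Its probe set 1370981_at ranged between -0.20 and 0.17 in sucrose arrays with a median of 0.11, against -0.18 and 0.12 in control arrays with a median of 0.03. Probe set 1392271_at ranged between -0.24 and 0.10 in sucrose arrays with a median of 0.04, against -0.14 and 0.15 in control arrays with a median of 0.00. The differences were 0.06 ± 0.07 and -0.02 ± 0.06 (adjusted p = 0.884 and 0.973 in limma). Neither probe set was low in sucrose array 1, where they stood at 0.17 and 0.08.

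To read the genes together, the probe sets of a gene were averaged and then the 9 genes. This mean was -0.21, -0.14, -0.13, 0.06, 0.09 and 0.07 in sucrose arrays 1 to 6, against 0.02, 0.07, 0.04, -0.01, -0.03 and -0.10 in control arrays 1 to 6. Sucrose arrays 1, 2 and 3 were the lowest of the 12 and arrays 5 and 6 lay above the highest control, with array 4 just inside the control range and control array 6 next above the low 3. Averaged within groups it was -0.04 ± 0.13 for sucrose and 0.00 ± 0.06 for control (SD, n = 6 pools each), a difference of -0.04. It was -0.01 without sucrose array 1, -0.02 without array 2 or 3, and between -0.07 and -0.06 without sucrose array 4, 5 or 6 or control array 6, and -0.03 without control array 2. Sucrose array 1 held the lowest of the 12 values for 9 of 17 probe sets (12.9% of all). In single probe sets, sucrose arrays 1, 2 and 3 all lay below arrays 4, 5 and 6 for 13 of 17, an order read off these same values, where 5.15% of all probe sets had it. The 4 others were Rgs9 1382090_at, Foxp1 1394691_at and both of Rxrg.

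Agreement between the members was then described as Pearson's r of each gene's mean with the mean of the other 8 over the 12 arrays, after subtraction of each group's mean. All points share their array, its normalization and its pool, so r is a description. The mean of the 9 genes spread more in sucrose (SD 0.13) than in control arrays (SD 0.06), so sucrose arrays weigh more in r. In part r therefore restates the order of sucrose arrays given above, and it was not taken over control arrays alone. This r was 0.90 for Foxp1, 0.88 for Gpr6, 0.88 for Tac1, 0.87 for Meis2, 0.86 for Adora2a, 0.84 for Gnal, 0.81 for Rgs9 and 0.55 for Foxp2, and -0.03 for Rxrg. Within a gene the probe sets could differ. The 5 of Foxp1 had 0.91, 0.85, 0.80, 0.54 and -0.54 with the mean of the other genes, and the 2 of Rgs9 had 0.94 and 0.46. Genes for receptors, a G protein, a peptide precursor and transcription factors were among the 7 with the highest values.

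Other genes of striatal projection neurons showed part of this order. Sucrose arrays 1, 2 and 3 all lay below arrays 4, 5 and 6 for 20 of their 42 probe sets (47.6%). The order was not limited to striatal genes. It held for 32.0% of myelin, 28.6% of central and intercalated amygdala, 27.3% of GABA neuron and 26.7% of endothelium probe sets. For thalamic and hypothalamic, choroid plexus and microglia probe sets it was 15.8%, 10.0% and 7.69%, and for pallial and astrocyte ones 0.0%. Of the 25 striatal genes listed, 24 were measured, and 21 were lower and 3 higher in sucrose arrays. Over all 14217 genes 7896 were lower and 6321 higher. The median gene difference of the striatal list was -0.05 (-0.01 over all genes). Its mean difference was -0.04, and -0.01 without sucrose array 1. The adjusted threshold was passed by 0 of the 42 probe sets, and 4 had an unadjusted p under 0.05 in limma (9.52%, near the 7.57% of all probe sets). Their mean was -0.20, -0.08, -0.11, 0.02, 0.05 and 0.04 in sucrose arrays 1 to 6, against -0.04, 0.05, 0.07, 0.01, -0.03 and -0.08 in control arrays 1 to 6. Low values again fell on sucrose arrays 1, 2 and 3 and control array 6. Of the 4 probe sets, those of Ebf1, a factor of direct-pathway neurons, and Actn2 were lower, by -0.16 ± 0.05 and -0.10 ± 0.04, and those of Tmem158 and Pde10a, the striatal phosphodiesterase, were higher, by 0.12 ± 0.05 and 0.15 ± 0.07 (adjusted p between 0.510 and 0.619 in limma). Further probe sets of Tmem158 (-0.04) and Pde10a (0.02) were smaller in size, and the other two of Ebf1 were lower as well. Drd2, the D2 dopamine receptor of indirect-pathway neurons, ranged between -0.54 and 0.17 in sucrose arrays and between -0.22 and 0.15 in control arrays, with a difference of -0.13 ± 0.10 (adjusted p = 0.812). Scn4b, a sodium channel subunit, spanned -0.72 to 0.27 in sucrose arrays and -0.21 to 0.13 in control arrays, with a difference of -0.09 ± 0.14 (adjusted p = 0.923).

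Genes of the central and intercalated amygdala were mixed in sign. Of 15 measured of 16 listed, 9 were lower and 6 higher, with a median gene difference of -0.01, and 0 of 21 probe sets passed the adjusted threshold. Their mean was -0.06, -0.07, 0.02, 0.00, 0.01 and 0.04 in sucrose arrays 1 to 6, against -0.10 to 0.07 in control arrays, so that every sucrose value lay within the control range. Crh, a stress peptide of the lateral central nucleus, differed by -0.15 ± 0.11, Avpr1a, the vasopressin V1a receptor, by 0.09 ± 0.05 and Pnoc, the nociceptin precursor, by 0.08 ± 0.04, and the 2 probe sets of Calcrl by -0.10 ± 0.10 and -0.08 ± 0.06 (adjusted p between 0.725 and 0.878 in limma). Of 3 probe sets of the intercalated cell factor Zfhx3, 1 was higher by 0.12 ± 0.05 and the others were lower. The higher 1 was the only probe set of the list under the unadjusted threshold (4.76%, against 7.57% of all). Prkcd, the kinase that marks a class of central amygdala neurons, was between -0.14 and 0.08 in sucrose arrays and between -0.05 and 0.04 in control arrays.

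Pallial excitatory neuron genes, shared by BLA and cortex, were highest in sucrose arrays 1 and 3, while array 2 lay inside the control range. Their mean was 0.10, 0.03, 0.12, -0.02, -0.09 and -0.01 in sucrose arrays 1 to 6, against -0.06, -0.02, -0.03, -0.02, 0.06 and 0.04 in control arrays 1 to 6. Sucrose array 5, which had the highest mean of the 9 markers, had the lowest pallial mean. Of 15 measured of 17 listed, 7 genes were higher and 8 lower, and 0 of 26 probe sets passed the adjusted threshold. In limma 5 had an unadjusted p under 0.05 (19.2%), of which 4 were higher and 1 lower. Of all probe sets 7.57% did, 4.5% higher and 3.07% lower. Neurod2, a factor of pallial neurons, had 0.34, 0.23 and 0.24 in sucrose arrays 1, 2 and 3 and 0.05, 0.07 and 0.17 in arrays 4, 5 and 6, against -0.09 to 0.12 in control arrays, a difference of 0.19 ± 0.05 (adjusted p = 0.424 in limma). One of 4 Camk2a probe sets differed by 0.36 (adjusted p = 0.422 in limma) and the others by 0.05 to 0.15. One of 5 Etv1 probe sets differed by 0.19 (adjusted p = 0.561 in limma) and the others by -0.02 to 0.05. Fezf2 was the remaining higher one, at 0.17, with 0.39, 0.25 and 0.21 in sucrose arrays 1, 2 and 3. The 1 lower probe set belonged to Lmo3, at -0.08. Fezf2 and Lmo3 were named with their values in view.

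**Figure D4:**
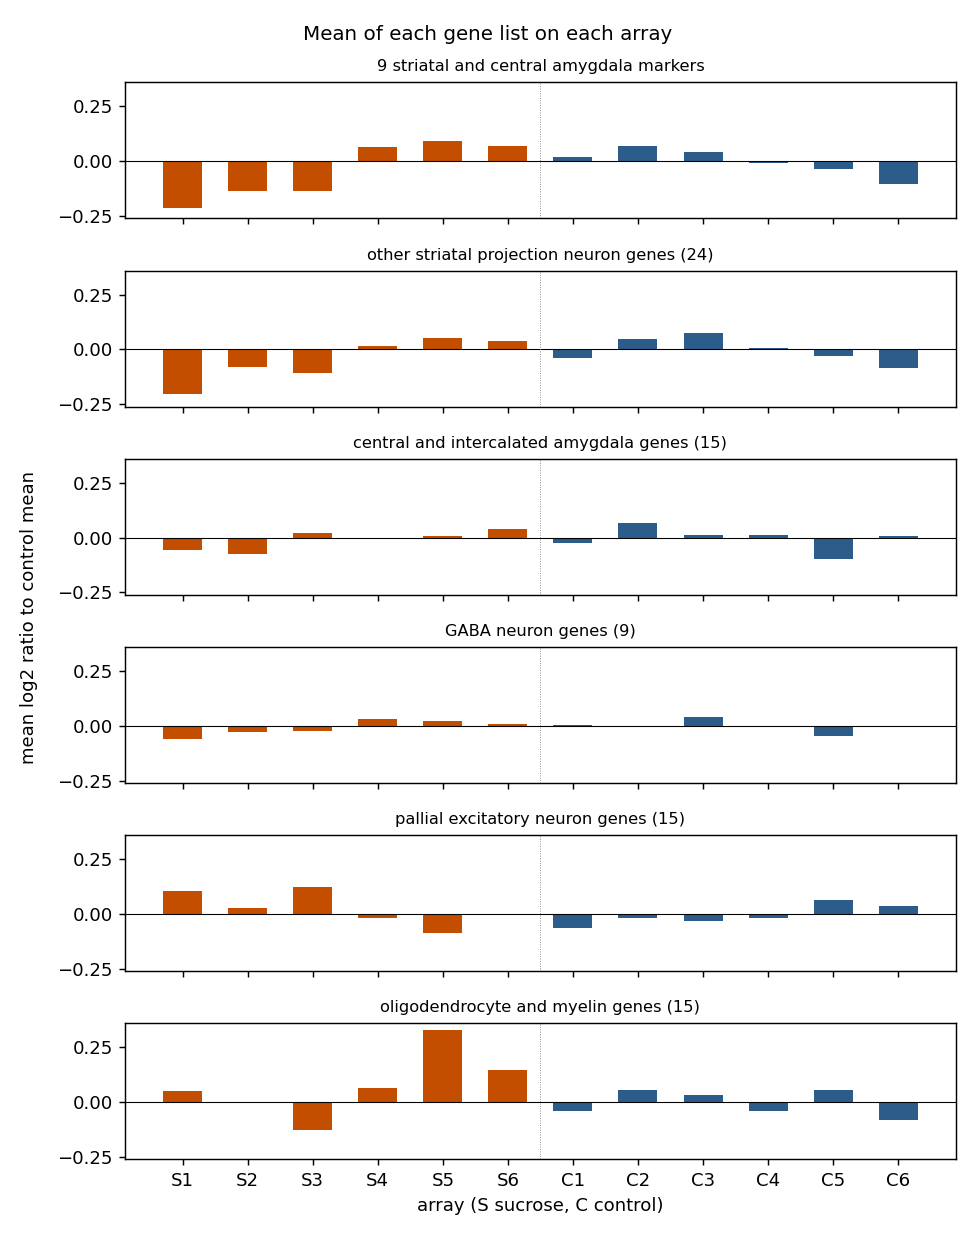
Mean log2 ratio (vertical axis) of 6 gene lists on each array (horizontal axis, S1 to S6 sucrose in orange, C1 to C6 control in blue), with each gene as the mean of its probe sets. The 9 markers and the other striatal genes are low in S1, S2, S3 and C6, and the pallial genes are highest in S1 and S3.

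Lists of other cell types were read on the same arrays. Oligodendrocyte and myelin genes had a mean of 0.05, 0.00, -0.12, 0.06, 0.33 and 0.15 in sucrose arrays 1 to 6, against -0.08 to 0.06 in control arrays. Of these 15 genes 14 were higher, as were 6321 of all 14217 genes. The mean difference of the 15 was 0.08, and 0.03 without sucrose array 5. Of their 25 probe sets 0 passed the adjusted threshold and 4 had an unadjusted p under 0.05 in limma (16.0%, against 7.57% of all). Choroid plexus and ependyma genes stood at 1.04 in sucrose array 1, 0.32 in array 5 with the remaining 4 sucrose values between -0.17 and 0.00, and control values between -0.16 and 0.17. Astrocyte genes were 0.15 in sucrose array 1 and between 0.00 and 0.06 in the others, against -0.17 to 0.05 in control arrays. Means of GABA neuron, microglia and macrophage, endothelium and pericyte, and thalamic and hypothalamic genes stayed between -0.10 and 0.08 in sucrose arrays and between -0.07 and 0.06 in control arrays. Sucrose array 1 also topped the 12 arrays in spike-in signal (0.183) and was lowest in the signal of Gapdh and beta-actin probe sets at the 3-prime end relative to the 5-prime end (-0.137). Sucrose array 2 was the highest of the 12 in the end difference (0.0842), and sucrose array 3 was the lowest after array 1 (-0.0383). Their spike-in signals were 0.062 and 0.0131. In control array 6 the spike-in signal was -0.0687 and the end difference -0.0136. The part of these measures in the low marker values was not tested.

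The genes most like the mean of the 9 markers were found by the same r over all 14208 other genes, with the same weight on sucrose arrays. The 8 highest were Rasd2 (0.94), a small GTPase-like protein of striatum, Slc35d3 (0.94), Chat (0.94), which makes acetylcholine, Strip2 (0.93), Drd2 (0.93), Nexn (0.93), Rem2 (0.93) and Rarb (0.91), a retinoic acid receptor. Rasd2, Drd2 and Rarb were on the list of striatal genes, whose median r was 0.72, with 22 of 24 above 0 and 10 among the 100 highest, against a median of 0.00 over all genes. Leaving out single arrays moved this median between 0.65, without sucrose array 1, and 0.76. Pallial genes had a median of -0.46 and 1 of 15 above 0, with Neurod2 at -0.85. The 4 lowest of all were Fgd6 (-0.87), Gna14 (-0.86), Adra1d (-0.86) and Usb1 (-0.85). Central and intercalated amygdala genes had a median of 0.23, and Tshz1 (0.81), a factor of intercalated cells, was their highest. Myelin genes were also alike, with a median of 0.62 and 14 of 15 above 0. Among GABA neuron genes, with a median of 0.12, r was 0.88 for Dlx5, 0.73 for Slc32a1, 0.65 for Gad2, 0.22 for Dlx1, 0.12 for Pvalb, 0.08 for Gad1, -0.07 for Reln, -0.18 for Npy and -0.33 for Vip. Tshz1, and Prkcd among the central amygdala genes above, were picked with their values in view. The medians were 0.00 for astrocyte, -0.14 for microglia, 0.09 for endothelium, -0.22 for choroid plexus and 0.22 for thalamic and hypothalamic genes.

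**Figure D5:**
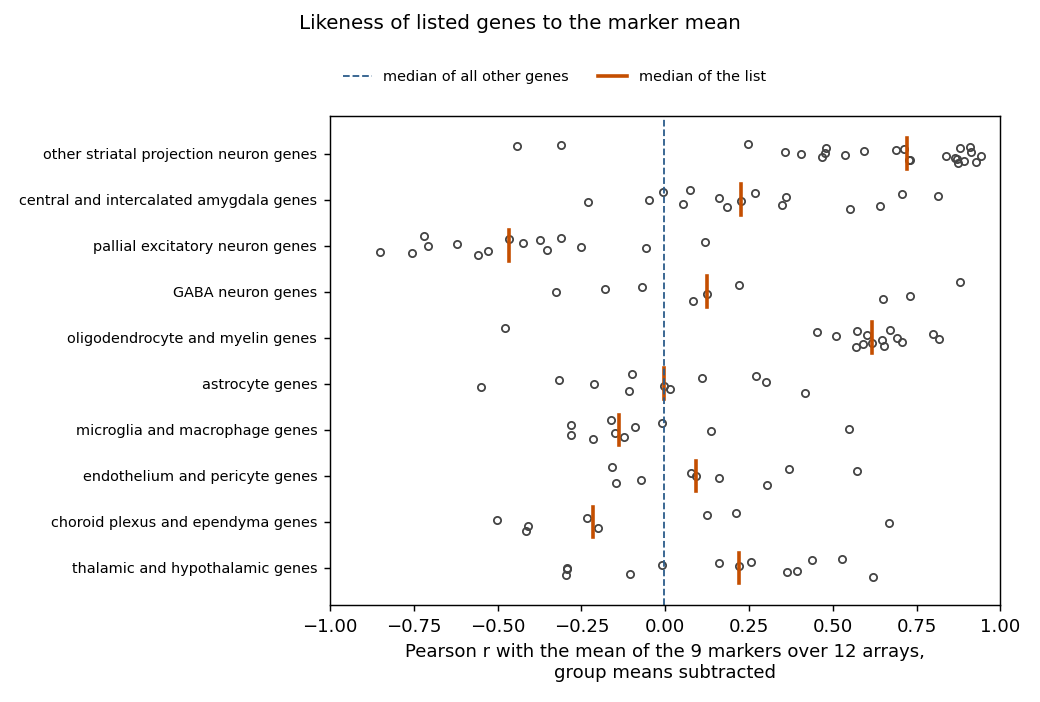
Pearson r of each listed gene (circles) with the mean of the 9 markers over the 12 arrays after subtraction of group means (horizontal axis), by gene list (vertical axis), with the median of each list (orange bar) and of all other genes (dashed blue line). Striatal genes (median 0.72) and myelin genes (0.62) lie to the right and pallial genes (-0.46) to the left.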

How the data were processed

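BLA total RNA from 12 pools was hybridised as biotin-labelled cRNA to 1 array each. The authors deposited ratios on a linear scale, and the control columns average to 1 in every probe set (largest deviation 2.02e-07). RMA is named in the submitters' processing notes, with no version, and no source used here gives the later scaling. The p-value column of the second deposited table served only to identify its 145 probe sets. Log2 ratios of 31042 probe sets (57 control probe sets left out of 31099) entered a linear model (limma 3.58.1, R 4.3.3), with group as the only term and no variance trend, two-sided, with Benjamini-Hochberg adjustment over all of them and a threshold of 0.05. The fit was also run on simulated independent values with equal spread in both groups. That simulation does not cover the unequal spread and shared variation of the marker probe sets. Gene names came from probe sets with 1 symbol (20826). A gene was the mean of its probe sets. Likeness was Pearson's r of a gene with the mean of the 9 markers after group means were subtracted. Named were all members, at most a few other striatal or central amygdala genes at an unadjusted p under 0.05 or of the largest difference, pallial genes of lowest p, and the 8 highest and 4 lowest in likeness. Members and the 10 comparison lists were chosen with earlier results of these data known. Alternatives were a replicate block, quantile normalization, median centring, a variance trend, array weights, the myelin mean as a covariate, the probe set of highest variance per gene and leaving out each array. The number of arrays limits the precision.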

Additional observations from a re-analysis of the deposited data

Results flagged for a closer look

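One value met Dixon's criterion for an array far from the rest of its group, among 56 groups of 6 values examined (17 probe sets and 11 list means in both treatments), where chance gives about 3. It was the mean of astrocyte genes in control array 5, at -0.17, with the next control at -0.01. None of the 34 groups of marker probe set values met it.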

How the results depend on the processing

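The adjusted threshold was passed by 0 of the 17 marker probe sets under each of 18 alternatives, and 11 of 17 kept their sign in all of them. A sign turned for Adora2a 1368301_at with array weights (0.0122), and with the myelin covariate for Rgs9 1382090_at (-0.0156), Rxrg 1392271_at (0.0219) and Foxp1 1380544_at (-0.0067). Leaving out single arrays gave -0.1357 to 0.0066 for Adora2a 1368300_at, -0.0567 to 0.0215 for Adora2a 1368301_at, -0.0027 to 0.0912 for Rgs9 1382090_at, -0.0439 to 0.028 for Rxrg 1392271_at, -0.0061 to 0.0395 for Foxp1 1380544_at and -0.0625 to 0.0143 for Foxp2. Marker probe sets at an unadjusted p under 0.05 numbered 0 higher and 0 lower. With the myelin covariate 2 were lower, Rgs9 1368500_a_at (-0.1531) and Foxp1 1390885_at (-0.083). The myelin mean itself differed between the groups, so these 2 are not separate evidence of a difference. Leaving out single arrays gave 0 to 1 lower and 0 to 1 higher. The share of all probe sets at an unadjusted p under 0.05 is not given for these settings, so these counts have no background beside them. Over all probe sets 0 passed the adjusted threshold, 1 with the myelin covariate and 0 to 1 without single arrays. The causes were not tested. The difference of the 9-marker mean stayed between -0.07 and -0.01. The spread counts and the likeness medians without single arrays were chosen after the values were seen.

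Sucrose and control pools share replicate numbers, with nothing in the labels to tie them. Deviations of same-numbered pools correlated between -0.15 and 0.19, and only pool 4 correlated best with its own number, so the numbers were not taken to pair the samples. With the replicate block 0 marker probe sets passed, and Gpr6 had a difference of -0.09 (adjusted p = 0.911).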
